A study of Mus musculus with 8 samples.

Results

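The complement and coagulation factors of plasma are made largely by hepatocytes, and their mRNAs were read here in mouse livers whose hepatocytes lack thioredoxin reductase 1. The genes were a list of 39 that encode fibrinogen, the clotting proteases and their inhibitors, plasminogen, the mannose-binding lectins, the complement components from the convertases to the membrane attack complex, and the regulators of both cascades. Of these, 37 were read by at least 1 probe set that carries their symbol and no other, by 50 probe sets in all, out of 18193 genes on the array. C3 and Cpb2 had no such probe set and were not analysed here. For 29 genes the value came from 1 probe set and for 8 it was the mean of 2 to 5. The list was drawn up by function.

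The livers came from young adult male mice housed singly for 10 days and killed in the afternoon. In 4 mice of genotype txnrd1 cond/- albCre1 (animals 69, 72, 73 and 81) the albumin promoter drove Cre recombinase in hepatocytes. Cre converted the conditional allele to a null one and left hepatocytes that are txnrd1-/-. The second allele was null in every cell, so the other liver cells were txnrd1 cond/-, with only the conditional allele intact. These livers are called txnrd1-/- below. The other 4 mice were txnrd1 cond/+ albCre0 (animals 70, 71, 80 and 82), called txnrd1cond/+, with 1 conditional and 1 wild-type allele and no Cre. Loss of Txnrd1 in hepatocytes, the null allele in the other cells and presence of Cre therefore cannot be told apart. RNA of each liver was hybridized to 1 Affymetrix mouse expression array. Neither strain nor exact age is stated in the labels or methods.

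Hepatocytes secrete both cascades as inactive precursors. In coagulation, proteases activate each other in turn until thrombin cuts fibrinogen into fibrin, and the vitamin K-dependent factors must first be carboxylated in the endoplasmic reticulum. Complement is started on a microbial surface by antibody, by lectins or by slow self-activation, and its convertases split C3 and C5, after which C5b, C6, C7, C8 and C9 assemble into a pore. Many of these genes are also acute phase genes, which liver turns up under interleukin-6, and most are driven by hepatocyte factors such as HNF1 and HNF4.

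The deposited values are linear ratios. Each array has a median near 1 (0.997 to 0.999), and the authors set each probe set relative to roughly its own median across the 8 animals. A log2 ratio of 0 is therefore the middle of the 8 livers for that gene, and levels of different genes cannot be compared. Genotypes were compared on the log2 scale with limma over all 18193 genes, with Benjamini-Hochberg adjustment over all of them. A fold change is the mean log2 ratio of txnrd1-/- livers minus that of txnrd1cond/+ livers. A gene was called where its adjusted p did not exceed 0.05 and the genotypes differed by at least 1.5-fold, or 0.585 on the log2 scale. The RNA is of whole liver, so fewer cells of a type and less RNA per cell cannot be told apart. The 3 probe sets of Txnrd1 itself ran in opposite directions, with log2 fold changes between -0.71 and 1.11. Which of them lie inside the floxed segment is not stated in the sources used here, so they do not check the labels. Ratios also hold no levels against which the hepatocyte markers could check the tissue.

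The RefSeq promoter of each of 7 genes is shown, since they carry the results that follow. The 3 fibrinogen genes lie side by side and supply the chains of 1 protein, and C6, C9, C8a and C8b were the complement genes whose mRNA varied most among the livers. Each run holds 300 bases of GRCm38.p6, 5′ to 3′ on the strand of the gene, from 250 bases before the annotated start to 50 after it. Capitals mark letters that match 1 of 3 short motifs on either strand: GTTAAT, the core of the site of the hepatocyte factor HNF1, CTGGGAA, the interleukin-6 response element of acute phase genes, and TTCNNNGAA, the palindrome that STAT proteins bind. The last letters of the second motif can also end the third, so the same bases can match both. Fgg lies at chr3:83007474-83007773 (plus strand) and holds the interleukin-6 element. Fga lies at chr3:83025903-83026202 (plus strand) with the HNF1 core and the STAT palindrome. Fgb lies at chr3:83049814-83050113 (minus strand) and holds all 3 motifs. C6 lies at chr15:4726960-4727259 (plus strand) with the interleukin-6 element, and C9 at chr15:6445096-6445395 (plus strand) with none of the motifs in this window. C8a lies at chr4:104876349-104876648 (minus strand) with the HNF1 core and the STAT palindrome, and C8b at chr4:104766067-104766366 (plus strand) with the HNF1 core.
Fgg: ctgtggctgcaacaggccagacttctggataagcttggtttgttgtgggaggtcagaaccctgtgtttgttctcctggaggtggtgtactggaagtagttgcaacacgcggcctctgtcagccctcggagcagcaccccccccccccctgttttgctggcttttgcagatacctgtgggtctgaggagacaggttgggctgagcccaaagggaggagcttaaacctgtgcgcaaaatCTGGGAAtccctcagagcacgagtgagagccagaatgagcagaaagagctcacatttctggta
Fga: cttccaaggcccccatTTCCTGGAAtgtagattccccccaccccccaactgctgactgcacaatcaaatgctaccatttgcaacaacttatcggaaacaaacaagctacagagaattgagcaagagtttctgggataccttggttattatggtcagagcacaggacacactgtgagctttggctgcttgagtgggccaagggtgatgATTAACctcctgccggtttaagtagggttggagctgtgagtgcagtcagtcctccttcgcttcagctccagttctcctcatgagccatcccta
Fgb: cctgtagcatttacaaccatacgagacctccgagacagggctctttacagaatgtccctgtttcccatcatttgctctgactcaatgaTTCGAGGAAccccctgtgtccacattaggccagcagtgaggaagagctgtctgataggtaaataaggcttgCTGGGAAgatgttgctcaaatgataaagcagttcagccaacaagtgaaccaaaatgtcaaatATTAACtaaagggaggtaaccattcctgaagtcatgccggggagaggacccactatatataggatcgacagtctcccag
C6: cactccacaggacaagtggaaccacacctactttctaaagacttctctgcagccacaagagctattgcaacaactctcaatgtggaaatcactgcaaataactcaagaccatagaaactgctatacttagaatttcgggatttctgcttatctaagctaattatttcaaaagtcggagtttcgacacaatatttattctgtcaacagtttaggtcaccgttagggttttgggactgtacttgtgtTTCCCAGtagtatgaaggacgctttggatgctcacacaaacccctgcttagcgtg
C9: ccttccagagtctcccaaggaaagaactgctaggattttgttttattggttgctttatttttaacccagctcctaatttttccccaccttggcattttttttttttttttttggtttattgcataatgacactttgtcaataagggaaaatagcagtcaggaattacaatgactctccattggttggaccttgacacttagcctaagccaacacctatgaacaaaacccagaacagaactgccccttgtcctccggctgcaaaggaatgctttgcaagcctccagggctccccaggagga
C8a: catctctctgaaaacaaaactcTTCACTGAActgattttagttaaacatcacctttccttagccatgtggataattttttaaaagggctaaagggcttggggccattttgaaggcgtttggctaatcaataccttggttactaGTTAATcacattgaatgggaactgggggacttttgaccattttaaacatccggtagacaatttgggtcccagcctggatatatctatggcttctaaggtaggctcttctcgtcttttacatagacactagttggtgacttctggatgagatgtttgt
C8b: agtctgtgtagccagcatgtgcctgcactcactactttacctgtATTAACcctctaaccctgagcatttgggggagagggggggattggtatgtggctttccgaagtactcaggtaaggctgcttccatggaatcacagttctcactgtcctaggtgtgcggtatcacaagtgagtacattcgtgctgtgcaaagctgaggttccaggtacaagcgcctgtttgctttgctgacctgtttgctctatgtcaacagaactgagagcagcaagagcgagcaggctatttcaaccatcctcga

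Promoters of 29 of the 37 genes were in the RefSeq table. GTTAAT was found in 10 of the 29 (34.5%), against 7.1% of all 32851 promoters of this length. CTGGGAA was found in 6 (20.7%), against 11.1% of all, and TTCNNNGAA in 7 (24.1%), against 8.3%. These are matches of letters only and no binding was measured.

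No complement or coagulation gene passed the threshold. After adjustment over all genes, 0 of 37 were called higher and 0 lower in txnrd1-/- livers, against 0.077% and 0.0055% of all genes tested. At the study's thresholds (1.5-fold with a p threshold of 0.05, taken as unadjusted, and without its minimum signal), 0 of 37 were higher and 0 lower, against 0.572% and 0.0824% of all genes. Where limma's p was at or under 0.05 before adjustment, 0 of 37 were higher, against 1.71% of all genes, and 1 was lower (Serpind1), against 0.605%. Against shares this low, 0 or 1 gene of 37 is no result about the list. The adjusted p was 0.9999 for every one of the 37 genes.

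The differences were small as well as uncalled. All 37 log2 fold changes lay between -0.30 and 0.24, that is between 1.231-fold lower (C8b) and 1.181-fold higher (C8g) in txnrd1-/- livers. The 95% confidence interval of the fold change stayed within 1.5-fold in either direction for 31 genes (83.8%), near the 82.5% of all genes. The other 6, Klkb1, Cfb, C6, C8a, C8b and C9, had wider intervals that do not exclude a 1.5-fold fall, and for C6 and C9 not a 1.5-fold rise either. The plot of fold changes with their intervals shows this for each gene.

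**Figure D1:**
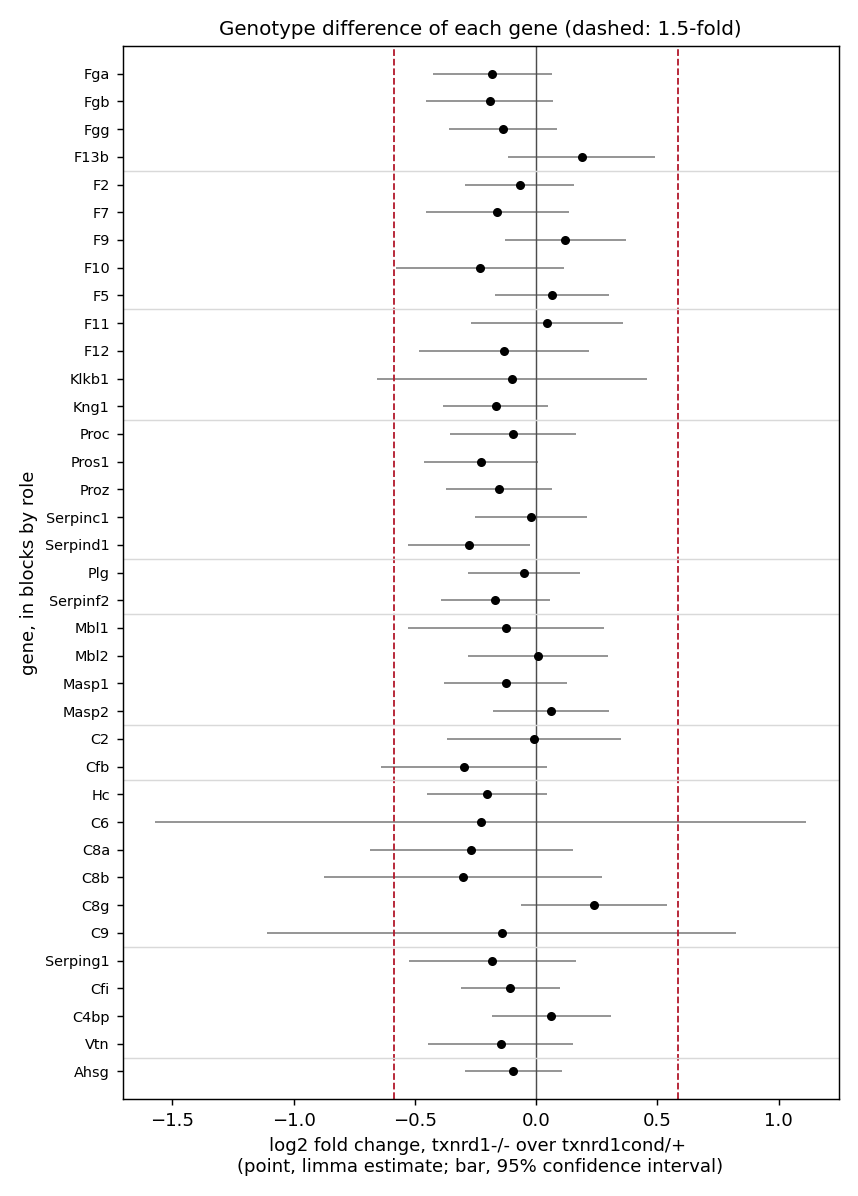
Log2 fold change (horizontal axis, txnrd1-/- over txnrd1cond/+ livers, n = 4 each) of each of 37 genes, in blocks by role. Points are limma estimates, bars their 95% confidence intervals and dashed lines a 1.5-fold difference. The bars of 31 genes stay between the dashed lines, and only that of Serpind1 lies clear of 0.

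Most of the estimates were nevertheless on the low side. The log2 fold change was below 0 for 29 of 37 genes (78.4%), against 48.9% of all genes, and its median was -0.13 (1.097-fold lower), against 0.003 over all genes. These genes were read in the same 8 livers and are not independent, so no test was made of the count. It was 26 to 31 genes with any 1 animal left out. The highest value lay in txnrd1cond/+ animal 80 or 82 for 26 of the 37 genes (70.3%), against 32.1% of all genes. The median over the genes was 0.10 in animal 80 and 0.092 in animal 82, against -0.10 in txnrd1-/- animal 73, which held the lowest value of 13 genes (35.1%, against 11% of all genes). The other 5 medians lay between -0.024 and 0.022. Without animals 80 and 82 the count below 0 was 26, while the median shrank to -0.051. Most other lists described below leaned the same way in the fit of all 8 livers. Below 0 were 16 of 21 other complement genes, 18 of 29 other secreted plasma proteins, 10 of 12 endothelial and 11 of 12 stellate cell markers. So were 6 of 6 erythroid, 7 of 9 neutrophil, 7 of 9 platelet and megakaryocyte and 9 of 9 pancreatic acinar markers. Further lists were 9 of 13 hepatocyte markers, 11 of 17 hepatocyte transcription factors and 12 of 20 other coagulation genes. The rest were 12 of 21 acute phase genes, 7 of 12 Kupffer cell and 4 of 6 cholangiocyte markers. Against these stood 5 of 12 genes of the vitamin K cycle and export, 4 of 9 lymphocyte markers, and 5 of 15 male-predominant and 3 of 12 female-predominant liver genes.

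**Figure D2:**
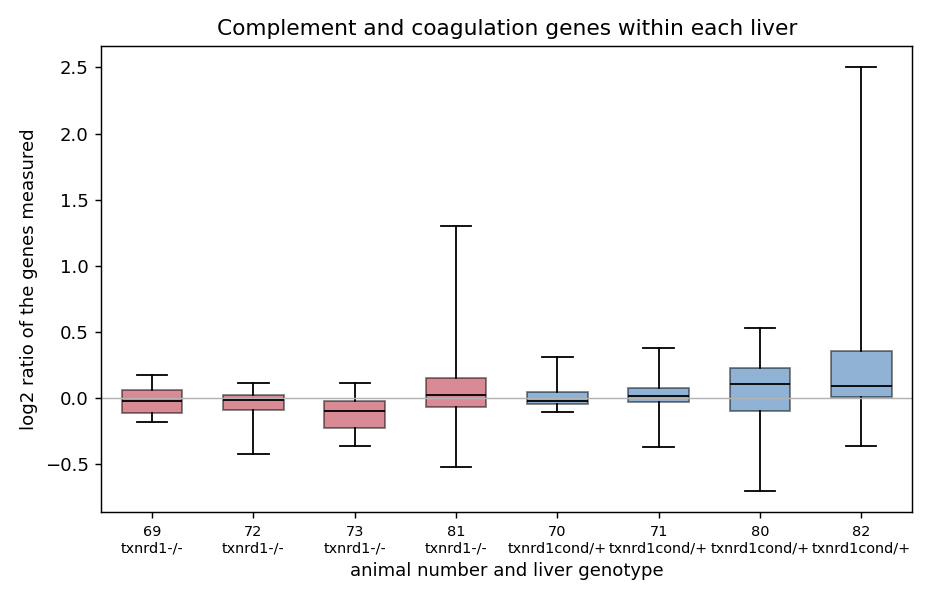
Log2 ratios (vertical axis) of the 37 genes within each liver, txnrd1-/- animals in red and txnrd1cond/+ animals in blue. Lines mark the median, boxes the middle of the distribution between its quartiles, and whiskers the lowest and highest gene. Animals 80 and 82 have the highest medians and animal 73 the lowest, and the whiskers of animals 81 and 82 reach 1.30 and 2.50 (C6 in both).

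Fibrinogen is a hexamer of paired Fga, Fgb and Fgg chains and the substrate of thrombin. In the order of animals used throughout (69, 72, 73 and 81, then 70, 71, 80 and 82), the log2 ratio of Fga was -0.14, -0.089, -0.35 and 0.059 in txnrd1-/- livers, against -0.031, 0.023, 0.12 and 0.092 in txnrd1cond/+ livers. That of Fgb was -0.18, 0.089, -0.37 and -0.053 in txnrd1-/- livers, against -0.029, 0.12, 0.021 and 0.15 in txnrd1cond/+ livers. Fgg stood at -0.13, 0.024, -0.18 and -0.0043 in txnrd1-/- livers, against -0.025, 0.016, 0.064 and 0.21 in txnrd1cond/+ livers. All 3 were lowest in animal 73, and the groups overlapped for each. The log2 fold changes were -0.18 ± 0.11 (SE) for Fga, -0.19 ± 0.12 (SE) for Fgb and -0.14 ± 0.099 (SE) for Fgg, with exact 2-sided permutation p-values of 0.0857, 0.114 and 0.143. Their 95% intervals ran from -0.42 to 0.064, -0.45 to 0.070 and -0.36 to 0.084. F13b, the carrier subunit of the transglutaminase that cross-links fibrin, was among the 3 highest estimates. Its log2 ratio was 0.066, 0.051, -0.063 and 0.11 in txnrd1-/- livers, against -0.063, 0.17, -0.45 and -0.25 in txnrd1cond/+ livers. The txnrd1-/- livers lay close together while animals 80 and 82 were low, and the groups overlapped, with a log2 fold change of 0.19 ± 0.14 (SE), p = 0.201 in limma and an exact permutation p of 0.257. Without animals 80 and 82 the F13b estimate was -0.016.

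Thrombin and the proteases above it differed little. The log2 fold change was -0.068 ± 0.10 (SE) for F2, prothrombin, and -0.16 ± 0.13 (SE) for F7, which starts the cascade with tissue factor. F10, whose active form cuts prothrombin, was at -0.23 ± 0.15 (SE), and F5, the cofactor of F10 that needs no vitamin K, at 0.064 ± 0.10 (SE). F9, the factor lacking in haemophilia B, was the third highest estimate of the list, with log2 ratios of 0.064, 0.030, -0.012 and 0.019 in txnrd1-/- livers, against -0.032, -0.10, 0.10 and -0.35 in txnrd1cond/+ livers. All 4 txnrd1-/- values lay inside the range of the txnrd1cond/+ ones, which was set by animal 82 at the bottom and animal 80 at the top, and the fold change was 0.12 ± 0.11 (SE) (limma p = 0.309, exact permutation p = 0.257). F7 was high in 1 liver, at 0.53 in animal 80. The 3 probe sets of F10 gave log2 fold changes from -0.41 to -0.13, and the lowest unadjusted p of the 3 was 0.017.

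In the contact system, which starts clotting on charged surfaces and releases bradykinin, the log2 fold change was 0.045 ± 0.14 (SE) for F11 and -0.13 ± 0.16 (SE) for F12. It was -0.10 ± 0.25 (SE) for Klkb1 (plasma prekallikrein) and -0.17 ± 0.096 (SE) for Kng1, the kininogen that the active form of prekallikrein cuts. F12 and Kng1 had their highest values in animal 82. Klkb1 varied far more over the 8 livers than the other 3, with a range of 1.39.

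The anticoagulants held the only gene past the unadjusted threshold and the only gene whose groups did not overlap. Serpind1, heparin cofactor II, which inhibits thrombin on dermatan sulphate, had log2 ratios of -0.11, 0.030, -0.29 and -0.29 in txnrd1-/- livers, against -0.040, 0.092, 0.16 and 0.24 in txnrd1cond/+ livers. Animals 73 and 81 were the lowest and animals 80 and 82 the highest, and the txnrd1-/- value of animal 72 lay above the txnrd1cond/+ value of animal 70, so the groups overlapped. The log2 fold change was -0.28 ± 0.11 (SE), or 1.212-fold lower in txnrd1-/- livers, with p = 0.0341 before adjustment in limma and an exact 2-sided permutation p of 0.0571. Without animal 69, 71, 73, 80, 81 or 82 in turn the unadjusted p was above 0.05, at 0.0511 to 0.0927. The same held in a limma fit with the range of animal number as a covariate, with an unadjusted p-value of 0.0544 and a log2 fold change of -0.27. Of the animals numbered 80 to 82, 1 was txnrd1-/- and 2 were txnrd1cond/+.

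Pros1 encodes protein S, the cofactor with which activated protein C destroys factors V and VIII. Its log2 ratios were -0.036, -0.013, -0.27 and -0.16 in txnrd1-/- livers, against 0.017, 0.013, 0.23 and 0.16 in txnrd1cond/+ livers. Each txnrd1-/- value lay below each txnrd1cond/+ value, though animals 72 and 71 nearly met. Of the 37 genes this was the 1 gene (2.7%) with groups that did not overlap in the lower direction, against 0.583% of all genes, and 0 of 37 did so in the higher direction, against 1.13%. The log2 fold change of Pros1 was -0.23 ± 0.10 (SE) (p = 0.0552 in limma), and the exact 2-sided permutation p was 0.0286, the smallest that 70 arrangements of 4 against 4 livers allow. The other 3 anticoagulants were also below 0 and, like Pros1, did not pass the unadjusted threshold in limma. Their log2 fold changes were -0.095 ± 0.12 (SE) for Proc (protein C), -0.15 ± 0.097 (SE) for Proz (protein Z, cofactor of an inhibitor of factor Xa) and -0.022 ± 0.10 (SE) for Serpinc1 (antithrombin).

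In fibrinolysis, Plg, the precursor of plasmin, had a log2 fold change of -0.050 ± 0.10 (SE), and Serpinf2, antiplasmin, a fold change of -0.17 ± 0.10 (SE). Serpinf2 was near -0.063 in 3 txnrd1-/- livers and at 0.014 in animal 73, and txnrd1cond/+ animal 82 at -0.0058 lay below that value, so the groups overlapped.

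**Figure D3:**
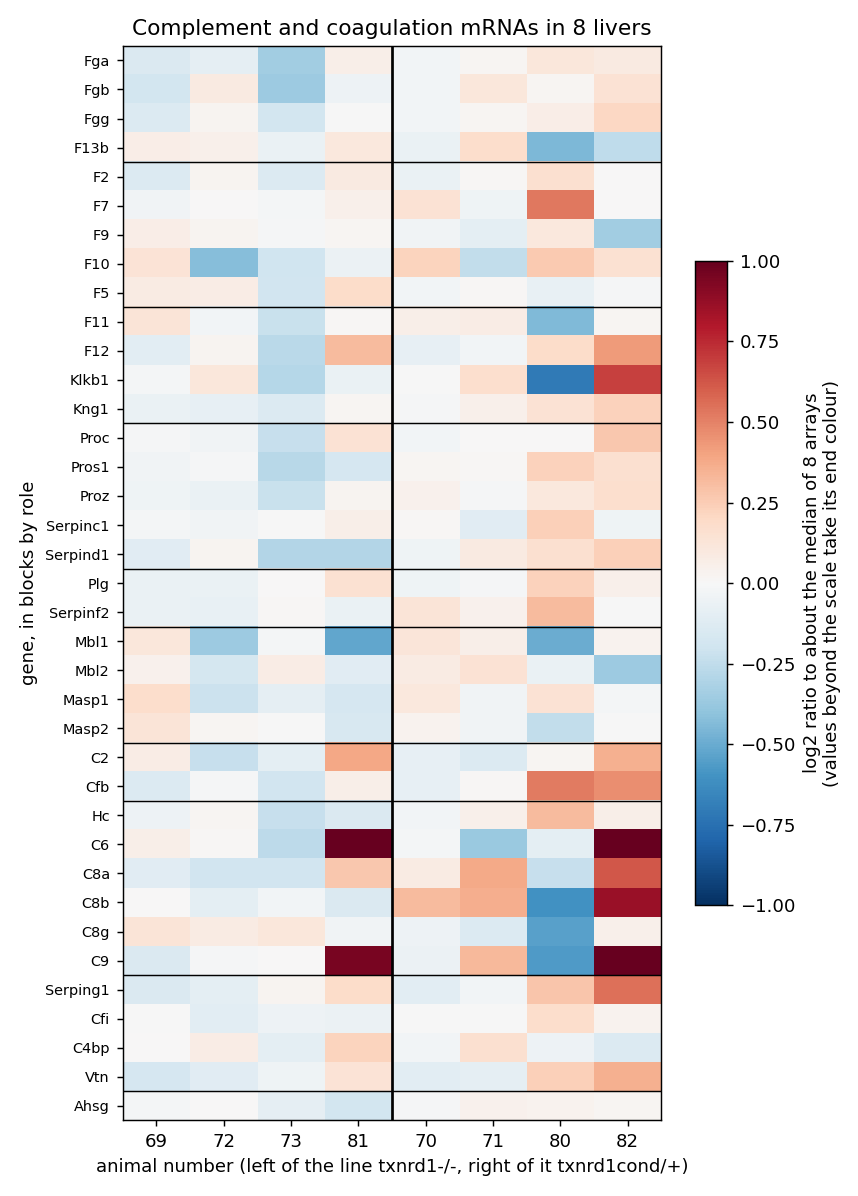
Log2 ratio (colour, red above and blue below the middle of the 8 livers) of 37 genes (rows, in blocks by role) in each liver (columns, txnrd1-/- animals left of the line). Colour ends at -1 and 1. C6 and C9 are dark red in animals 81 and 82, Klkb1 and C8b run from blue in animal 80 to red in animal 82, and animal 73 is mostly blue.

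On the complement side, the lectin pathway recognizes microbial sugars and cuts C4 and C2. The log2 fold change was -0.13 ± 0.18 (SE) for Mbl1 and 0.0077 ± 0.13 (SE) for Mbl2, the mannose-binding lectins, and -0.12 ± 0.11 (SE) for Masp1 and 0.060 ± 0.11 (SE) for Masp2, their proteases. Mbl1 was low in 1 liver of each genotype besides animal 72, at -0.52 in txnrd1-/- animal 81 and -0.50 in txnrd1cond/+ animal 80. The 5 probe sets of Masp1 gave log2 fold changes from -0.26 to 0.022.

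The convertase proteases C2 and Cfb are encoded side by side. C2, which serves the classical and lectin pathways, had a log2 fold change of -0.0088 ± 0.16 (SE). Cfb, factor B of the alternative pathway and an acute phase gene, had a fold change of -0.30 ± 0.15 (SE), the second lowest of the list (limma p = 0.0796, exact permutation p = 0.143). The log2 ratios of Cfb were -0.14, -0.013, -0.19 and 0.055 in txnrd1-/- livers, against -0.085, 0.014, 0.52 and 0.47 in txnrd1cond/+ livers. Only animals 80 and 82 stood out, both high, while animals 70 and 71 lay within the range of the txnrd1-/- livers. Without animals 80 and 82 the Cfb estimate was -0.036.

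No regulator of complement passed the test. The log2 fold change was -0.18 ± 0.15 (SE) for Serping1, the C1 inhibitor, which also holds back the active forms of factor XII and prekallikrein. It was -0.11 ± 0.091 (SE) for Cfi, the protease that destroys C3b and C4b, and 0.063 ± 0.11 (SE) for C4bp, a cofactor of that protease. Vtn, vitronectin, which caps the forming pore, was at -0.15 ± 0.13 (SE). Cfi varied little over the 8 livers, with a range of 0.28 (1.218-fold), and the narrowest range of the 37 was that of Ahsg, the plasma glycoprotein fetuin-A, at 0.23 (1.17-fold, fold change -0.095 ± 0.089 (SE)). Serping1 and Vtn were high in animals 80 and 82, and without these 2 animals their estimates were 0.059 and 0.050.

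Of the terminal pathway, 5 of 6 genes were below 0 and none passed the test. Hc encodes C5, from which the pore starts, and had a log2 fold change of -0.20 ± 0.11 (SE) (limma p = 0.0959, exact permutation p = 0.0571). C8g encodes the lipocalin chain of C8 and was the highest estimate of the list, with log2 ratios of 0.13, 0.079, 0.11 and -0.035 in txnrd1-/- livers, against -0.048, -0.14, -0.54 and 0.054 in txnrd1cond/+ livers. Animal 80 was the lowest and the groups overlapped at animals 81 and 82, and the fold change was 0.24 ± 0.13 (SE) (limma p = 0.106, exact permutation p = 0.0571). Without animal 82, C8g was the 1 gene higher at the unadjusted threshold in limma, and 0 were lower, against 1.24% of all genes lower. The share of all genes higher in that fit is not given here, so this 1 gene has no matching background.

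C8a and C8b, neighbours that encode the pore-forming chains of C8, gave log2 fold changes of -0.27 ± 0.19 (SE) for C8a and -0.30 ± 0.26 (SE) for C8b, the lowest of the 37. The log2 ratio of C8b was 0.0058, -0.097, -0.028 and -0.15 in txnrd1-/- livers, against 0.31, 0.36, -0.61 and 0.87 in txnrd1cond/+ livers. The 4 txnrd1-/- livers lay between -0.15 and 0.0058, 3 of the txnrd1cond/+ livers were above all of them, and animal 80 was below all of them. Without animal 80, C8a and C8b were the 2 genes past the unadjusted threshold in limma, with C8b at -0.58, and the adjusted p was at least 0.9998. In that fit 0.715% of all genes were lower at the unadjusted threshold.

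A few of these genes varied widely among animals of the same genotype, though no more often than genes in general. Most of the 37 mRNAs were steady over the 8 livers: the median range (highest minus lowest log2 ratio) was 0.51, against 0.58 over all genes, and the median SD was 0.17, against 0.20. In 24 genes the range was under 1.5-fold. In 4 it reached 2-fold (10.8%, against 13.7% of all genes), and these were C6, C9, C8b and Klkb1. C8a came next, at 0.85, and these 5 were the only genes of the list among the top 20% of all genes by SD.

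**Figure D4:**
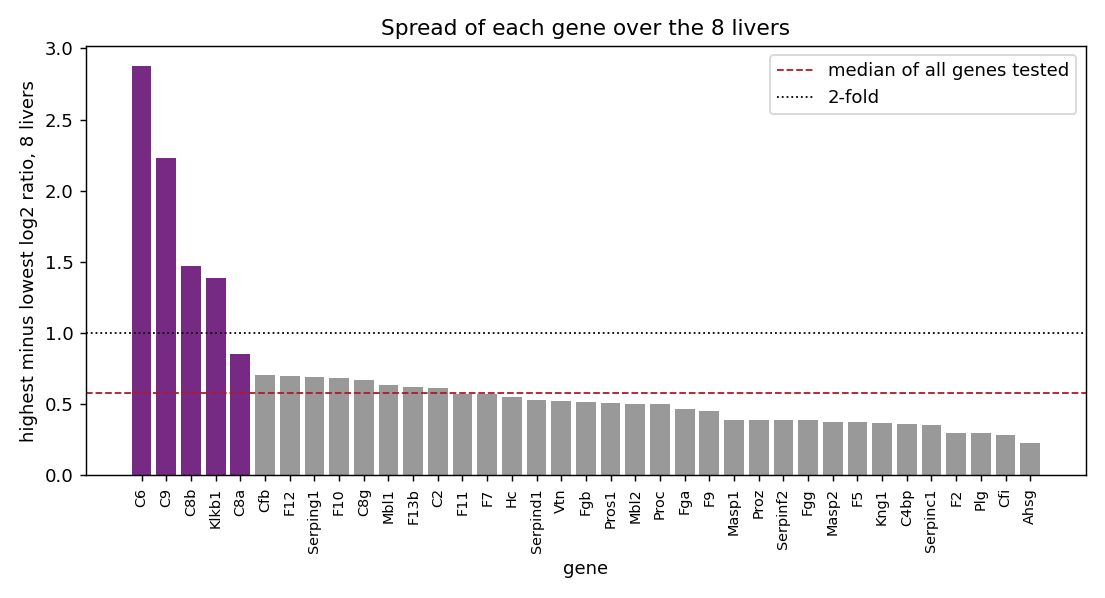
Highest minus lowest log2 ratio over the 8 livers (vertical axis) of each of 37 genes, in falling order. The dashed line is the median of all genes tested (0.58) and the dotted line a 2-fold range. C6, C9, C8b and Klkb1 pass the dotted line, and C8a (purple like them) lies between the lines.

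C6 had the widest range, 2.87 or 7.33-fold. Its log2 ratios were 0.057, 0.0086, -0.27 and 1.30 in txnrd1-/- livers, against -0.017, -0.37, -0.099 and 2.50 in txnrd1cond/+ livers. Animal 82 was the highest and animal 81, of the other genotype, the second highest, and the other 6 livers lay between -0.37 and 0.057. C9, whose many copies close the pore, had log2 ratios of -0.15, -0.013, 0.0072 and 0.95 in txnrd1-/- livers, against -0.056, 0.32, -0.57 and 1.66 in txnrd1cond/+ livers. Again animals 82 and 81 were the highest, and animal 80 was the lowest. The log2 fold changes between genotypes were -0.23 ± 0.60 (SE) for C6 and -0.14 ± 0.43 (SE) for C9, with intervals of -1.57 to 1.11 and -1.11 to 0.82. Both estimates changed sign without animal 82, C6 to 0.44 and C9 to 0.30, and neither passed the unadjusted threshold. F12, Proc and C2 also had their 2 highest values in animals 81 and 82, so that 5 of 37 genes did, against 4.82% of all genes.

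Klkb1, prekallikrein, had log2 ratios of -0.017, 0.11, -0.29 and -0.065 in txnrd1-/- livers, against -0.0058, 0.17, -0.70 and 0.68 in txnrd1cond/+ livers. Animal 82 was the highest and animal 80 the lowest, and the 4 txnrd1-/- livers lay between them. This order of extremes was shared by C8a, C8b and C9, and thus by 4 of 37 genes (10.8%), against 3.1% of all genes. F11, which lies next to Klkb1, was also lowest in animal 80, at -0.44, but was at 0.020 in animal 82. The ranges of C6, C9, C8b and Klkb1 passed 2-fold, with animal 82 the highest, in the values as deposited and under each of 3 other scalings of the arrays. C9, C8b and Klkb1 were lowest in animal 80 under each, while C8a was lowest in animal 73 under quantile normalization.

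In laboratory mice the terminal complement components are known to be more abundant in males, and many liver genes differ by sex under the pattern of growth hormone. A list of male-predominant liver genes was therefore read in the same livers, after the values of C6 and C9 had been seen. By the study's methods all 8 mice were male. Of 15 such genes measured (19 listed), 10 had their 2 highest values in animals 81 and 82, against 4.82% of all genes. In animal 80, 12 of the 15 were lowest, against 15.8% of all genes. The list's median log2 ratio was -0.070, -0.045, 0.057 and 0.56 in txnrd1-/- animals 69, 72, 73 and 81, against -0.13, 0.0058, -1.49 and 0.90 in txnrd1cond/+ animals 70, 71, 80 and 82. Animals 81 and 82 were the highest and animal 80 was far below the rest.

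Cyp4a12a, an androgen-dependent fatty acid hydroxylase, had log2 ratios of -1.21, -1.26, 0.78 and 4.83 in txnrd1-/- livers, against -0.53, 0.39, -2.20 and 4.58 in txnrd1cond/+ livers. Elovl3, a male-predominant fatty acid elongase, stood at -0.017, 0.052, -0.059 and 3.11 in txnrd1-/- livers, against -0.37, 0.0029, -2.01 and 3.68 in txnrd1cond/+ livers. Both were high in the animals that were high in C6 and C9. Of 12 female-predominant genes measured (18 listed), 5 had their 2 lowest values in animals 81 and 82, where the list's median was -0.50 and -1.20. Animal 81 held the lowest value of 10.7% of all genes and animal 82 that of 19%. These are shares for the single lowest value. The share of all genes with their 2 lowest values in these animals is not given here, so the 5 of 12 have no matching background. Not all terminal genes followed this order of animals. Hc was highest in animal 80, at 0.32, and stood at -0.14 in animal 81 and 0.058 in animal 82. C8b was at -0.15 in animal 81, C6 was lowest in animal 71, and C8g was lowest in animal 80 but highest in animal 69. The part of this variation among animals in the spread of C6, C9, C8a, C8b and Klkb1 was not tested.

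**Figure D5:**
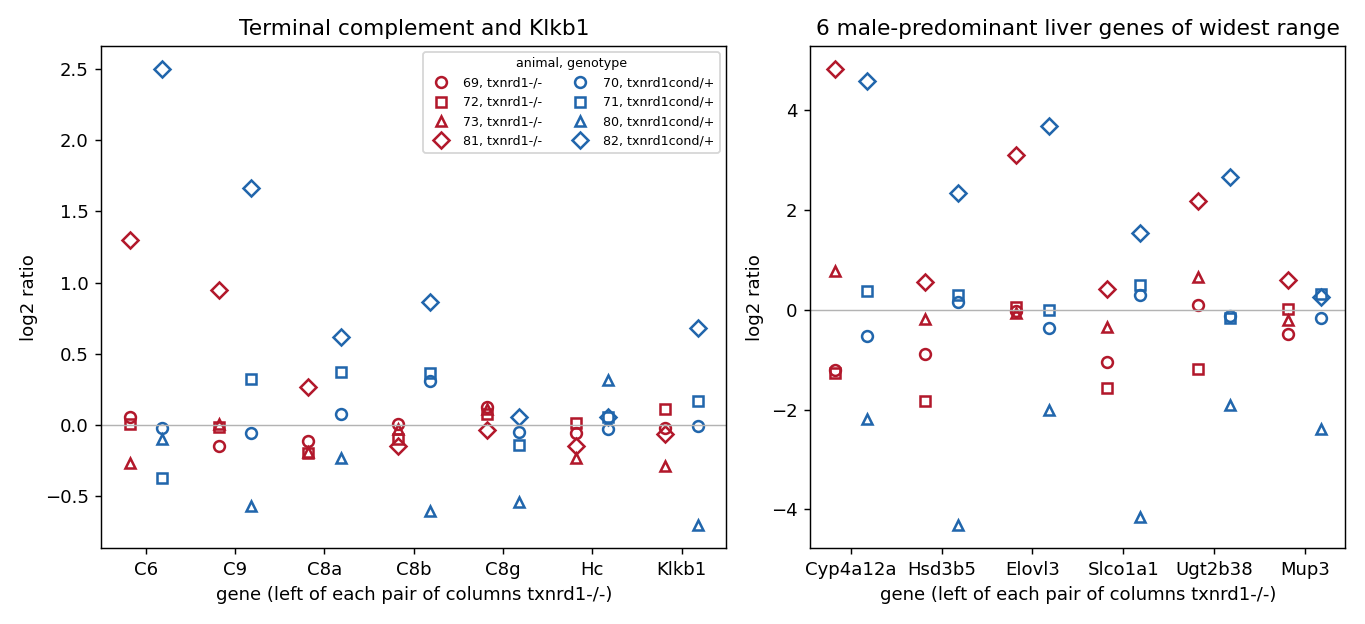
Log2 ratio (vertical axes, different scales) in each liver of 6 terminal complement genes and Klkb1 (left panel) and of the 6 male-predominant genes with the widest range (right panel). Red marks are txnrd1-/- and blue marks txnrd1cond/+ animals. Diamonds (animals 81 and 82) lie at the top for C6 and C9 and for each of the 6 genes on the right, except that Slco1a1 and Mup3 had a txnrd1cond/+ animal above 1 of them. The blue triangle (animal 80) lies at the bottom for each of the 6.

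Genes around these cascades gave few changes. Of 20 other coagulation and fibrinolysis genes measured, 0 passed an unadjusted p of 0.05 in either direction, with a median log2 fold change of -0.031, and of 21 other complement genes 0 did, with a median of -0.035. Of 12 genes of the vitamin K cycle and of the export of clotting factors, 1 was called higher and 0 lower, with a median of 0.057. The gene called was Nqo1, a quinone reductase that can reduce vitamin K and a known target of Nrf2. Its log2 ratios were 0.68, 0.65, 1.44 and 0.79 in txnrd1-/- livers, against -1.41, -1.98, -1.21 and -2.13 in txnrd1cond/+ livers. The groups did not overlap, and the log2 fold change was 2.58 ± 0.24 (SE), 5.97-fold higher in txnrd1-/- livers (adjusted p = 0.00585, limma). The carboxylase Ggcx, which the vitamin K-dependent factors need, was at -0.10 ± 0.11 (SE), and the reductase Vkorc1 at 0.11 ± 0.13 (SE).

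Other secreted products of hepatocytes gave few differences as well. Of 29 other secreted plasma proteins, 0 were higher and 1 (Itih1, an inter-alpha-trypsin inhibitor heavy chain, log2 fold change -0.27 ± 0.10 (SE)) was lower at an unadjusted p of 0.05, with a median of -0.062. Of 21 acute phase genes, 1 was higher (Orm3, an orosomucoid, 0.51 ± 0.22 (SE)) and 1 lower (Steap4, a metalloreductase, -0.37 ± 0.13 (SE)), with a median of -0.049. Of 17 hepatocyte transcription factors 0 passed in either direction (median -0.011), and Hnf4a was at -0.17 ± 0.15 (SE). Of 13 hepatocyte markers, 1 was higher (Asgr1, an asialoglycoprotein receptor subunit, 0.29 ± 0.11 (SE)) and 0 lower (median -0.045), and Alb, albumin, was at 0.0097 ± 0.093 (SE). None of Itih1, Orm3, Steap4 and Asgr1 passed after adjustment.

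One liver stood apart in its markers. The 9 pancreatic acinar genes measured (13 listed) had a median log2 ratio of 4.32 in txnrd1cond/+ animal 71 and between -0.21 and 0.14 in the other 7 livers. The median of the complement and coagulation genes was 0.013 in animal 71, and without it 29 of 37 fold changes were still below 0, with a median of -0.15.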

How the data were processed

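Liver RNA of 8 mice was measured on 1 array each. The authors deposited linear ratios. The paper's methods name GeneSpring and the submitters' notes name RMA, with no version of RMA in the sources used here. Of 45101 probe sets, 64 controls were left out. Of the other 45037, 34945 carried 1 symbol in the platform annotation, 932 several and 9160 none. Those with 1 symbol were averaged per gene on the log2 scale with symbols brought up to date by the GRCm38.p6 RefSeq annotation. The ratios of 98.5% of probe sets have a median within 0.02 of 1, which leaves no level on which the study's signal minimum could be set. 5 values were empty, 0 of them in the probe sets used for the 37 genes.

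Genotypes were compared 2-sided in R 4.3.3 by lmFit and eBayes of limma 3.58.1, which had 6 residual degrees of freedom and 3.71 prior ones, and single genes again with an exact permutation test. Python 3.11.15 and matplotlib 3.10.9 made the figures. The code was tested on simulated data. The precision is limited by having 4 arrays a genotype.

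Each of the 37 genes was named with its fold change. Values in each liver were given for genes at an unadjusted p of at most 0.05, the 3 highest and 3 lowest estimates and fibrinogen, and, chosen after their values were seen, for Pros1, C6, C9, Klkb1 and the genes from other lists. The genes and lists were chosen with earlier results of these data known, and the sex-biased lists after the values of C6 and C9. Alternatives were other scalings, other values per gene, a filter on the SD, robust, weighted and unmoderated fits, covariates for animal number and hybridization controls, and leaving out animals. Promoters are from RefSeq.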

Additional observations from a re-analysis of the deposited data

Results flagged for a closer look

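Of 112 groups of 4 values (each gene and each list median within a genotype), 11 held a value set apart from the other 3 by a gap above Dixon's 95% critical share of the group's range, where chance flags about 1 in 20 groups. In txnrd1-/- livers C9 was at 0.95 in animal 81, with the others between -0.15 and 0.0072. Serpinf2 was at 0.014 in animal 73, with the others between -0.073 and -0.063. The median of the other coagulation and fibrinolysis genes was 0.030 in animal 69, against -0.069 to -0.058 in the others, and that of lymphocyte markers was -0.096 in animal 73, against 0.016 to 0.036.

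In txnrd1cond/+ livers C6 was at 2.50 in animal 82, with the others between -0.37 and -0.017, and Proc was at 0.27 in animal 82, with the others between -0.029 and 0.0029. F11 was at -0.44 in animal 80, with the others between 0.020 and 0.075, and Mbl1 was at -0.50 in animal 80, with the others between 0.031 and 0.12. The median of erythroid markers was -0.21 in animal 80, against 0.12 to 0.17 in the others. In animal 71 the median of lymphocyte markers was 0.18, against -0.016 to 0.016, and that of pancreatic acinar markers 4.32, against -0.16 to 0.090.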

How the results depend on the processing

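The counts of complement and coagulation genes called after adjustment, and at the study's thresholds, were 0 in either direction under all 23 alternatives. The count at an unadjusted p, 1 lower and 0 higher in the fit reported, was less stable. It was 2 lower with quantile normalization (Pros1 and Serpind1) and 3 lower with each gene tested alone (Kng1, Pros1 and Serpind1). It was 0 lower with the probe set of largest variance, with a filter on the SD and with the range of animal number as a covariate. Of all genes tested, 0.429% to 1.24% were lower at that p over the 23 alternatives, and the share higher is not given here. Leaving out 1 animal at a time gave 0 to 3 of the 37 genes lower and 0 to 1 higher. The genes lower were Serpind1 and Cfb without animal 70, F10 and Cfb without animal 71 (with F13b higher), Fgb, Pros1 and Serpind1 without animal 72, C8a and C8b without animal 80, and 0 genes without animal 69, 73, 81 or 82 (with C8g higher without animal 82). With animals 81 and 82 both left out, chosen after seeing the data, it was 0 lower and 1 higher (C8g). The median log2 fold change lay between -0.16 and -0.089 with 1 animal left out, and was -0.051 without animals 80 and 82, also chosen after seeing the data. In that setting 1 gene was lower at an unadjusted p (C8b, at -0.40) and 0 were higher, and C6 was at 0.47. Of 839 values of single genes under these alternatives, 835 moved by less than the SD within groups, 4 moved by more (F13b, Cfb, Serping1 and Vtn, without animals 80 and 82). The sign differed from that of the fit reported in 45 of the 839 values, in 16 genes, 13 of them without animals 80 and 82, and 0 of these 45 were past the unadjusted threshold in either fit. The cause of these shifts was not tested. No paired analysis was possible because the numbers in the labels name animals and are not shared between the genotypes. With 4 arrays a genotype, the 95% interval of 31 of the 37 genes lay within 1.5-fold, and differences smaller than these intervals were not detectable.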

Other observations

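Markers of other cells in the liver gave 1 gene past the unadjusted threshold. The median log2 fold change was -0.017 for 12 Kupffer cell markers, -0.11 for 12 endothelial markers, -0.12 for 12 stellate cell markers, -0.041 for 6 cholangiocyte markers, 0.020 for 9 lymphocyte markers, -0.068 for 9 platelet and megakaryocyte markers and -0.14 for 6 erythroid markers, and 0 genes of these 7 lists passed an unadjusted p of 0.05 in limma. The medians of these lists differed among animals of 1 genotype, as for stellate cell markers at -0.19 to 0.094 in txnrd1-/- livers and -0.41 to 0.24 in txnrd1cond/+ livers. The 9 neutrophil markers had a median of -0.19, with 7 below 0 and 2 above (S100a8 at 0.38 and Mpo at 0.072). Of these 9, 1 was past the study's thresholds, Prtn3, a granule protease, with log2 ratios of -0.45, -0.79, 0.12 and -0.70 in txnrd1-/- livers, against 1.29, 0.44, 1.35 and -0.12 in txnrd1cond/+ livers and a log2 fold change of -1.20 ± 0.33 (SE) (adjusted p = 1.0, limma).

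Apcs, the pentraxin serum amyloid P component, was picked after its values were seen. Its log2 ratios were 0.037, -0.054, -0.26 and -1.37 in txnrd1-/- livers, against 0.39, 0.26, 0.37 and -1.29 in txnrd1cond/+ livers. It was lowest in animals 81 and 82, the animals in which C6 and C9 were highest. In the sex-biased lists, Cyp2b13, a female-predominant cytochrome P450, had log2 ratios of 1.83, 1.43, 1.05 and -0.53 in txnrd1-/- livers, against -0.37, -1.63, 0.29 and -1.96 in txnrd1cond/+ livers, and Gstp1, a male-predominant glutathione transferase, -0.019, 0.0029, 0.057 and 0.34 in txnrd1-/- livers, against -0.55, -0.52, -0.96 and 0.069 in txnrd1cond/+ livers. Both were past the study's thresholds, higher in txnrd1-/- livers by log2 fold changes of 1.86 ± 0.59 (SE) and 0.59 ± 0.20 (SE), and neither passed after adjustment.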
